A study of Mus musculus with 24 samples.

Results

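The 10 genes described here encode secreted ligands of the transforming growth factor beta (TGF-beta) superfamily: Tgfb1, Tgfb2, Tgfb3, Bmp2, Bmp3, Bmp4, Inhba, Inhbb, Gdf10 and Gdf15. They were chosen by symbol, and all 10 were found among the 39017 genes of the count matrix. The tissue was fat from under the skin at the 4th mammary gland, and the animals were C57BL/6 mice, lean and obese in the words of the series, with diets labelled Chow and HFD. Fat labelled as having no tumor, fat contralateral to a breast tumor and fat beside it (peritumoral) gave 6 groups of 4 libraries: Chow no-tumor, Chow contralateral, Chow peritumoral, HFD no-tumor, HFD contralateral and HFD peritumoral. Sample titles carry L for every peritumoral library and R for every contralateral and no-tumor library. Closeness to the tumor and what L and R mark therefore cannot be told apart. The labels give no genotype or transgene, no drug, and no age, sex, tumor line or length of feeding. Whether the 4 replicates of each group are separate animals is not stated either, and p-values then reflect only how far these libraries vary, which may be technical.

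Ligands of this family are made as precursors, cut and released as dimers, and bind pairs of type I and type II serine/threonine kinase receptors on the cell surface. TGF-betas and activins signal mainly through Smad2 and Smad3, and bone morphogenetic proteins (BMPs) mainly through Smad1, Smad5 and Smad9, with Smad4 as the common partner. Latent TGF-beta is stored in the matrix by binding proteins, and activins and BMPs are held by secreted inhibitors such as follistatin and the chordin-like proteins. In fat, TGF-beta is known for matrix deposition and for holding back the differentiation of adipocyte precursors, and BMP2 and BMP4 for commitment of precursors to the adipocyte lineage.

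The libraries held between 9.13 and 18.2 M counts each. The adipocyte markers Adipoq (961 to 2790 CPM, that is, counts scaled to library size) and Fabp4 (2500 to 6380 CPM) were present in all 24 libraries, so the label of fat holds by its defining markers. Several libraries stood apart by the markers of other cells. In Chow contralateral fat 3 of 4 libraries (replicates 1, 2 and 4) had 4599, 3161 and 2571 CPM of 5 summed skeletal muscle markers, against 73.4 CPM in replicate 3. Chow peritumoral replicate 2 had 2471 CPM of them and Chow no-tumor replicate 3 had 950 CPM. Markers of B cells and lymph node summed to 159 CPM in Chow contralateral replicate 4 and 95.5 CPM in HFD peritumoral replicate 2, and to at most 33.9 CPM in all others. Each library was left out in turn. The HFD peritumoral libraries had fewer adipocyte and more macrophage and proliferation transcripts than the HFD contralateral ones, with values given beside the results they touch.

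The ligands differed widely in level. Per kilobase of exon and averaged over the 24 libraries, Bmp3 was highest at 30.3 CPM per kb, a level above 92.8% of the genes with at least 1 CPM. Inhbb (12.3), Tgfb3 (10.98), Tgfb1 (9.70) and Gdf10 (6.60 CPM per kb) formed a middle group. Tgfb2 (2.35), Bmp4 (1.74) and Bmp2 (1.69 CPM per kb) were lower, and Inhba (0.273) and Gdf15 (0.268 CPM per kb) were near the limit of detection. The last pair reached at most 43 and 38 counts in any library.

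**Figure D1:**
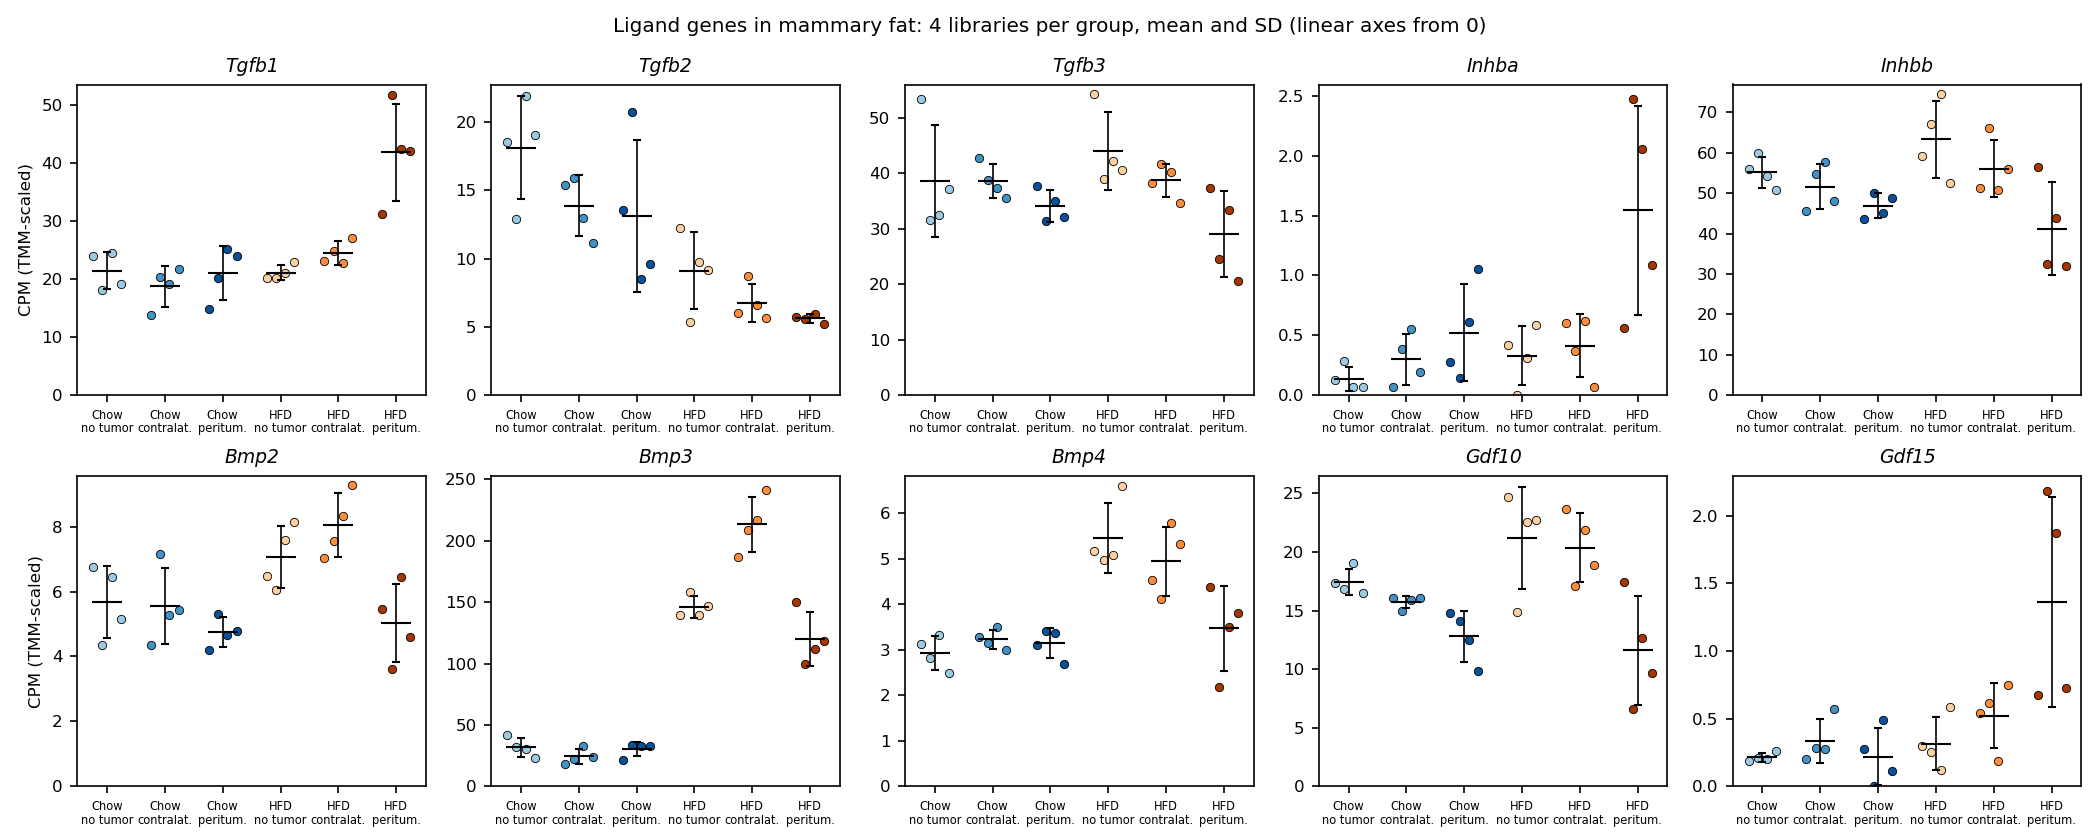
CPM of the 10 ligand genes (linear axes from 0, CPM scaled with TMM factors over all 24 libraries) in the 6 groups of 4 libraries; points are libraries, with the group mean and SD. Bmp3 separates all HFD from all Chow libraries (99.3 CPM and above against 41.8 CPM and below), Tgfb2 is lower on HFD, and Tgfb1 is highest in HFD peritumoral fat.

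The 3 TGF-beta genes showed 3 different patterns. Tgfb1 rose in peritumoral fat on HFD, Tgfb2 fell on HFD at every position, and Tgfb3 passed the test in no comparison. Each comparison of 2 groups was fitted over all genes in edgeR, and adjusted p-values are those of its quasi-likelihood F test after Benjamini-Hochberg adjustment with a threshold of 0.05. In bulk tissue, fewer cells of a type and less RNA per cell cannot be told apart, for these genes and all those below.

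Tgfb1 (ENSMUSG00000002603, mm10 chr7:25687002-25705077, plus strand) encodes the most widely expressed TGF-beta, made by immune and stromal cells. In HFD peritumoral fat it stood at 31.3, 51.7, 42.5 and 42.2 CPM in replicates 1 to 4, and in HFD contralateral fat at 23.2, 24.9, 22.8 and 27.2 CPM. The 4 HFD peritumoral libraries lay above the other 20. Chow peritumoral fat had 14.9, 20.2, 25.2 and 23.98 CPM, Chow contralateral fat 13.8, 20.3, 19.1 and 21.7 CPM, Chow no-tumor fat 24, 18.2, 24.6 and 19.2 CPM and HFD no-tumor fat 20.2, 20.3, 21.1 and 22.9 CPM. These 4 groups and HFD contralateral fat followed each other in mean level (24.5 ± 2.01 to 18.7 ± 3.48 CPM, SD, n = 4), each overlapping the next. On the log2 scale Tgfb1 was 0.78 ± 0.14 (SE) higher in peritumoral than in contralateral fat on HFD (adjusted p = 0.00567) and 0.95 ± 0.19 higher on HFD than on Chow in peritumoral fat (adjusted p = 0.00511). Both calls were kept in every alternative tried, with adjusted p up to 0.0214 and 0.0181. The 2 comparisons share the HFD peritumoral libraries. The 5 summed macrophage markers were higher by diet too, at 1766 to 2373 against 841 to 1484 CPM in peritumoral fat (3 of 5 called higher) and at 955 to 1160 against 713 to 925 CPM in contralateral fat (4 of 5 called higher). In no-tumor fat 0 of 5 were called. Their part in Tgfb1 was not tested. In contralateral fat Tgfb1 was 0.35 ± 0.13 higher on HFD (adjusted p = 0.03998), a call that was lost with all 24 libraries in 1 fit (0.39, adjusted p = 0.0536). It was also lost without replicate 1 (0.22) or 3 (0.35) of Chow contralateral fat, without any 1 of replicates 1 to 4 of HFD contralateral fat (0.38, 0.35, 0.38 and 0.30) and without the 3 libraries rich in muscle transcripts (0.35, adjusted p = 0.111). In no-tumor fat the difference between diets was -0.01 ± 0.10 (adjusted p = 0.946).

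Tgfb2 (ENSMUSG00000039239, mm10 chr1:186623186-186705992, minus strand) encodes an isoform that needs the co-receptor betaglycan (Tgfbr3) for strong receptor binding. Chow no-tumor fat had 18.5, 12.9, 21.9 and 19.1 CPM, Chow contralateral fat 15.4, 15.9, 12.96 and 11.1 CPM and Chow peritumoral fat 13.6, 20.8, 8.53 and 9.59 CPM. On HFD it stood at 12.2, 5.35, 9.72 and 9.13 CPM in no-tumor fat, at 5.99, 8.73, 6.59 and 5.64 CPM in contralateral fat and at 5.73, 5.58, 5.91 and 5.20 CPM in peritumoral fat. At each position all 4 HFD libraries lay below all 4 Chow libraries. The log2 difference between HFD and Chow was -0.98 ± 0.24 in no-tumor fat (adjusted p = 0.0166), -1.07 ± 0.16 in contralateral fat (adjusted p = 0.000221) and -1.26 ± 0.25 in peritumoral fat (adjusted p = 0.00502). The first call was lost without the low-count filter (-0.98, adjusted p = 0.0615), and the other two held in every alternative tried. Tumor side gave -0.26 ± 0.16 on HFD and -0.07 ± 0.25 on Chow, neither past the threshold (adjusted p = 0.237 and 0.936). The summed mammary epithelial markers, among them Krt8 and Krt18, were also lower on HFD (311 to 347 CPM in no-tumor fat, 180 to 234 CPM in contralateral fat) than on Chow (401 to 661 and 398 to 468 CPM). In peritumoral fat they ran from 74.6 to 268 CPM on HFD and from 371 to 465 CPM on Chow, and their part in the fall of Tgfb2 was not tested.

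Tgfb3 (ENSMUSG00000021253, mm10 chr12:86056744-86079041, minus strand) encodes an isoform made largely by mesenchymal cells. Its group means ran from 28.97 ± 7.77 CPM in HFD peritumoral fat to 44.0 ± 6.99 CPM in HFD no-tumor fat, and each group overlapped the next. The largest difference was between peritumoral and contralateral fat on HFD, at -0.41 ± 0.17 on the log2 scale (adjusted p = 0.0906). It passed the threshold without HFD peritumoral replicate 1 (-0.55, adjusted p = 0.0185) and with all 24 libraries in 1 fit (-0.40, adjusted p = 0.0491), and also with the replicate number as a block (-0.44, adjusted p = 0.0399). Diet gave 0.20 ± 0.18, -0.03 ± 0.08 and -0.27 ± 0.17 in no-tumor, contralateral and peritumoral fat.

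Together these patterns moved the share of each isoform among the 3 genes. By CPM per kb, Tgfb1 made up 35.7 ± 3.64% (SD, n = 4) of the sum in Chow no-tumor fat, 42.7 ± 3.70% in HFD contralateral fat and 62.5 ± 9.70% in HFD peritumoral fat. Its share in the 4 HFD peritumoral libraries (49.9, 70.6, 59.9 and 69.7%) lay above that in all others, whose highest was 48.2%. Tgfb2 fell from 16.3 ± 2.86% in Chow no-tumor fat to 4.56 ± 0.348% in HFD peritumoral fat, and Tgfb3 made up 48.0 ± 5.75% and 32.9 ± 9.44% in the same groups. These shares are a description of the values above and were not tested separately.

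**Figure D2:**
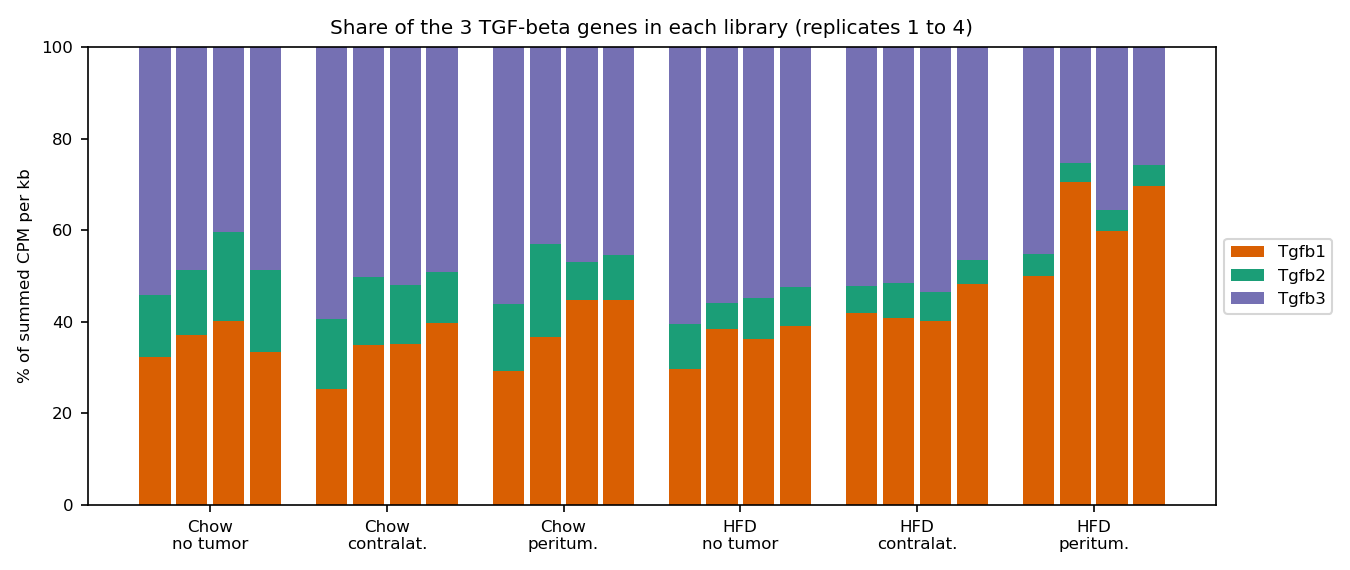
Percent of the summed CPM per kb of the 3 TGF-beta genes taken by each gene in every library (bars in order of replicates 1 to 4 within each of the 6 groups). Tgfb1 has its largest shares in the 4 HFD peritumoral libraries (49.9 to 70.6%), and Tgfb2 its smallest (4.12 to 4.96%).

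The stretches of 250 bases before the starts of Tgfb1 and Tgfb2 are shown because the isoforms moved in opposite directions. They are RefSeq sequences on GRCm38.p6, whose coordinates are those of mm10, read on the gene strand, and capitals mark matches to a GC box (GGGCGG, either strand) or a TATA box (TATAAA).
Tgfb1, chr7:25686752-25687001, plus strand: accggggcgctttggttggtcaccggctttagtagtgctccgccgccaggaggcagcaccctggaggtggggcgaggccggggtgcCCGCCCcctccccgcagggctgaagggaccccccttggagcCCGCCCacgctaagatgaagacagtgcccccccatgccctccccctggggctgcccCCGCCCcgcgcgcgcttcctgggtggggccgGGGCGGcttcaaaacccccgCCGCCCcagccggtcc
Tgfb2, chr1:186705990-186706239, minus strand: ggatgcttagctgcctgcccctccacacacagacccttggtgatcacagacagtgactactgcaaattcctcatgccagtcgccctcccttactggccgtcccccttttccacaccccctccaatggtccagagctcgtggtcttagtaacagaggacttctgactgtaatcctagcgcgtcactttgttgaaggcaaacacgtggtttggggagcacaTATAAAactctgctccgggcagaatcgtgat
The Tgfb1 window was 75.2% G and C and held 5 GC boxes, and the Tgfb2 window was 53.6% G and C and held a TATA box 31 to 26 bases before the start. Of 32851 RefSeq windows of this length, 32.7% held GGGCGG and 12.4% TATAAA on either strand. Both windows were also searched on both strands for AP-1 (TGANTCA), CRE (TGACGTCA), C/EBP-ATF (TGATGCAA) and a Smad palindrome (GTCTAGAC), present in 6.7, 1.5, 0.8 and 0.2% of windows, and held none of these letters. No marked matches overlapped. A match is a description of the sequence, and no match says only that these letters are not in this window.

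Of the activin genes, Inhba was scarce and Inhbb was plentiful. Inhba (ENSMUSG00000041324, mm10 chr13:16011851-16027211, plus strand) encodes the beta A subunit, whose dimer is activin A. It was counted 10, 43, 34 and 18 times in HFD peritumoral fat (0.56, 2.47, 2.05 and 1.09 CPM), and 10, 6, 10 and 1 times in HFD contralateral fat (0.61, 0.37, 0.62 and 0.06 CPM). HFD peritumoral replicates 2, 3 and 4 had more Inhba than all other libraries, the next being Chow peritumoral replicate 4 at 1.05 CPM. The other Chow libraries ran from 0.07 to 0.61 CPM and HFD no-tumor fat from 0 to 0.59 CPM, where the library without a count allows up to 0.191 CPM (3 counts, counting error only). On HFD, Inhba was 1.89 ± 0.58 higher on the log2 scale in peritumoral than in contralateral fat (adjusted p = 0.0365), although replicate 1 lay within the range of contralateral fat. That call was lost on leaving out any of HFD contralateral replicates 1 to 4 (2.13, 1.84, 2.13 and 1.54) or HFD peritumoral replicates 2, 3 or 4 (1.57, 1.72 and 2.02). The difference between diets in peritumoral fat was 1.62 ± 0.59 (adjusted p = 0.0572), and passed the threshold in DESeq2 (adjusted p = 0.0422).

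Inhbb (ENSMUSG00000037035, mm10 chr1:119415465-119422248, minus strand) encodes the beta B subunit of activin B, which adipocytes are known to express. Its group means lay between 41.2 ± 11.6 CPM in HFD peritumoral fat and 63.4 ± 9.60 CPM in HFD no-tumor fat, a ratio of 1.537, and each group overlapped the next. In HFD peritumoral fat replicate 1 had 56.6 CPM, and replicates 2, 3 and 4 had 32.5, 43.8 and 32.1 CPM. Inhbb passed the threshold in none of its 9 comparisons, with -0.44 ± 0.18 for tumor side on HFD (adjusted p = 0.0873). Without HFD peritumoral replicate 1 that value was -0.62 (adjusted p = 0.00657).

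Bmp3 had the largest difference by diet of the 8 ligands tested in no-tumor and in contralateral fat. In peritumoral fat the scarce Gdf15 had a larger one (2.44 against 1.94 on the log2 scale). Bmp3 (ENSMUSG00000029335, mm10 chr5:98854439-98880960, plus strand) encodes osteogenin, an atypical BMP known to oppose BMP2 and BMP4 signalling through activin type II receptors. It stood at 41.8, 32.0, 30.4 and 22.9 CPM in Chow no-tumor fat, at 18.1, 22.7, 33.1 and 23.9 CPM in Chow contralateral fat and at 21.6, 34.0, 33.3 and 33.0 CPM in Chow peritumoral fat. On HFD it stood at 139, 158, 140 and 147 CPM in no-tumor fat, at 187, 209, 217 and 242 CPM in contralateral fat and at 150, 99.3, 112 and 118 CPM in peritumoral fat. Every HFD library lay above every Chow library, and on HFD contralateral fat lay above both other positions. HFD no-tumor and peritumoral fat overlapped, as did the 3 Chow groups. The ratio of the highest to the lowest group mean was 8.74.

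The log2 difference between HFD and Chow in Bmp3 was 2.21 ± 0.15 in no-tumor fat (adjusted p = 1.43e-05), 3.09 ± 0.17 in contralateral fat (adjusted p = 3.74e-06) and 1.94 ± 0.17 in peritumoral fat (adjusted p = 0.000227). Over all alternatives these values stayed within 2.08 to 2.37, 2.68 to 3.26 and 1.79 to 2.01, and all were called. On HFD, Bmp3 rose by 0.52 ± 0.07 from no-tumor to contralateral fat (adjusted p = 0.00371), a call lost with all 24 libraries in 1 fit (0.53, adjusted p = 0.117), and was lower in peritumoral than in contralateral fat (-0.83 ± 0.13, adjusted p = 0.00314). On Chow the same 2 comparisons gave -0.34 ± 0.22 and 0.32 ± 0.19 (adjusted p = 0.344 and 0.622). The difference between diets in the effect of a distant tumor was 0.88 ± 0.24 (interaction, adjusted p = 0.02). It was called in every alternative run on it, with adjusted p up to 0.0456. Leaving out the 3 muscle-rich Chow contralateral libraries was not run on this interaction. Those libraries had 18.1, 22.7 and 23.9 CPM of Bmp3, and Chow contralateral replicate 3 had 33.1 CPM. The interaction of diet with tumor side was -1.11 ± 0.24 and did not pass the threshold (adjusted p = 0.0782). It passed in DESeq2 (-1.15, adjusted p = 0.00164), with all 24 libraries in 1 fit (-1.11, adjusted p = 0.0376) and without HFD peritumoral replicate 1 (-1.23, adjusted p = 0.00712). The 6 summed adipocyte markers ran from 11356 to 12371 CPM in HFD no-tumor and from 13632 to 16124 CPM in HFD contralateral fat, against 6237 to 8459 CPM over all Chow libraries. In HFD peritumoral fat they ran from 6646 to 12346 CPM, and their part in the level of Bmp3 was not tested.

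Bmp2 and Bmp4 encode close relatives that act through BMP type I receptors. Bmp4 (ENSMUSG00000021835, mm10 chr14:46383520-46390669, minus strand) stood at 3.12, 2.81, 3.32 and 2.48 CPM in Chow no-tumor fat and at 5.16, 4.97, 5.08 and 6.59 CPM in HFD no-tumor fat. In contralateral fat it stood at 3.27, 3.15, 3.50 and 3.01 CPM on Chow and 4.54, 4.12, 5.79 and 5.33 CPM on HFD. At both positions the HFD libraries lay above the Chow libraries, by 0.91 ± 0.15 (adjusted p = 0.00115) and 0.57 ± 0.15 (adjusted p = 0.00898) on the log2 scale. The second call was lost without the 3 Chow contralateral libraries rich in muscle transcripts (0.49, adjusted p = 0.24). Beside a tumor, HFD libraries (4.39, 2.18, 3.50 and 3.81 CPM) overlapped the Chow libraries (3.10, 3.403, 3.38 and 2.69 CPM), and the difference was 0.10 ± 0.23 (adjusted p = 0.77). In no-tumor fat the 5 summed endothelial markers were higher on HFD too (614 to 628 against 329 to 378 CPM, 5 of 5 called higher). In contralateral fat, where Bmp4 was also called, they overlapped (392 to 695 against 418 to 485 CPM, 0 of 5 called higher and 1 lower). Their part in Bmp4 was not tested. Bmp4 shares 89 exon bases with the antisense gene Gm15217, whose mean was 0.092 CPM against 3.86 CPM for Bmp4, and no source used here gives whether counting used strand.

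Bmp2 (ENSMUSG00000027358, mm10 chr2:133552159-133562885, plus strand) had group means from 4.74 ± 0.461 CPM in Chow peritumoral fat to 8.04 ± 0.977 CPM in HFD contralateral fat, each group overlapping the next. In contralateral fat it had 7.02, 7.56, 8.31 and 9.27 CPM on HFD and 4.36, 7.15, 5.28 and 5.44 CPM on Chow. Chow replicate 2 lay just above the lowest HFD library, and the difference was 0.51 ± 0.16 (adjusted p = 0.0185). That call was lost without Chow contralateral replicate 1 (0.40, adjusted p = 0.0572) and without the 3 muscle-rich libraries (0.60, adjusted p = 0.093). HFD peritumoral fat (5.45, 3.62, 6.46 and 4.60 CPM) lay below HFD contralateral fat in every library, with a difference of -0.67 ± 0.18 (adjusted p = 0.0244). It was lost without HFD contralateral replicate 2, 3 or 4 (-0.69, -0.65 and -0.59) and without HFD peritumoral replicate 4 (-0.63).

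Gdf10 (ENSMUSG00000021943, mm10 chr14:33923587-33935280, plus strand), also called BMP3B, encodes the closest relative of Bmp3. Unlike Bmp3, its Chow no-tumor libraries (17.4, 16.9, 19.1 and 16.5 CPM) overlapped its HFD no-tumor libraries (24.7, 14.8, 22.6 and 22.7 CPM), with a difference of 0.29 ± 0.14 (adjusted p = 0.141). In contralateral fat it had 23.7, 17.1, 21.9 and 18.9 CPM on HFD and 16.1, 14.98, 15.9 and 16.05 CPM on Chow, so that every HFD library lay above every Chow library. The difference was 0.33 ± 0.10 (adjusted p = 0.0185), and was lost with all 24 libraries in 1 fit (0.37, adjusted p = 0.121), without HFD contralateral replicate 1 or 3 (0.26 and 0.30) and without the 3 muscle-rich libraries (0.35, adjusted p = 0.23). Peritumoral fat had 17.5, 6.61, 12.7 and 9.68 CPM on HFD and 14.8, 14.1, 12.5 and 9.83 CPM on Chow, the 2 lowest group means (11.6 ± 4.63 and 12.8 ± 2.21 CPM). On HFD the difference from contralateral fat was -0.80 ± 0.25 (adjusted p = 0.0377), where peritumoral replicate 1 overlapped the contralateral libraries. This call was lost without the low-count filter (-0.81), without any of HFD contralateral replicates 1 to 4 (-0.72, -0.87, -0.77 and -0.84) and without HFD peritumoral replicate 3 or 4 (-0.85 and -0.73). On Chow every peritumoral library lay below every contralateral library, but the difference of -0.29 ± 0.12 did not pass the threshold (adjusted p = 0.559).

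Gdf15 (ENSMUSG00000038508, mm10 chr8:70629393-70632456, minus strand) encodes a distant member of the family induced by cell stress, which signals through the brainstem receptor Gfral. HFD peritumoral fat held 12, 38, 31 and 12 counts (0.67, 2.18, 1.87 and 0.73 CPM), and Chow peritumoral fat 4, 0, 8 and 1 counts (0.28, 0, 0.49 and 0.12 CPM), where 0 counts allow up to 0.213 CPM. Every HFD library lay above every Chow library, and replicates 2 and 3 on HFD lay above all other libraries of the series. The log2 difference was 2.44 ± 0.67 (adjusted p = 0.0198), a call that did not hold without replicate 1 of Chow peritumoral fat (2.52, adjusted p = 0.0556). In 3 further alternatives, without replicate 2, 3 or 4 of HFD peritumoral fat, Gdf15 failed the low-count filter and had no test. In HFD contralateral fat Gdf15 stood at 0.54, 0.61, 0.18 and 0.75 CPM, so that the highest of these overlapped peritumoral replicates 1 and 4. That difference was 1.38 ± 0.50 (adjusted p = 0.0638) and passed the threshold in DESeq2 (1.40, adjusted p = 0.0445). Inhba and Gdf15 passed the low-count filter only in comparisons that include HFD peritumoral fat, the group where they were highest, so their calls are no support for a pattern of the family.

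The windows before Inhba and Gdf15 are shown because these genes had their highest means in the same group of libraries, with capitals for a TATA box as above.
Inhba, chr13:16011601-16011850, plus strand: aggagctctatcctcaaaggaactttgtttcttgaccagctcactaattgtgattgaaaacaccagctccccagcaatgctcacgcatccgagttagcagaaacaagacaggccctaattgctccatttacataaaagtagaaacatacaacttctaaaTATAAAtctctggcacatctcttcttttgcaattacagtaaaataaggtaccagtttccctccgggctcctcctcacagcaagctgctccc
Gdf15, chr8:70632457-70632706, minus strand: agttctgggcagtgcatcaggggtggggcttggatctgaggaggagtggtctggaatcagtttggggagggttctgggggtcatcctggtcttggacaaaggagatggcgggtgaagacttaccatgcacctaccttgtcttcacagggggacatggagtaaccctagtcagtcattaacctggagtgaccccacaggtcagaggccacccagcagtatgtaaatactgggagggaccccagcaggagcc
The Inhba window was 43.2% G and C and held TATAAA 91 to 86 bases before the start. The Gdf15 window was 56.4% G and C and held none of the 6 motifs. RefSeq windows were at hand for 7 of the 10 ligands, and not for Tgfb3, Bmp2 or Bmp3.

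The number of ligands called is read beside the share of all genes called in the same comparison. In no-tumor fat 3 of 8 tested ligands differed by diet (Bmp3 and Bmp4 higher, Tgfb2 lower), where 24.9% of all genes tested were called, 13.6% higher and 11.3% lower. In contralateral fat 6 of 8 were called (Tgfb1, Bmp2, Bmp3, Bmp4 and Gdf10 higher, Tgfb2 lower) against a background of 49.3% (24.5% higher and 24.8% lower). Without the 3 muscle-rich libraries 2 of 8 (Bmp3 and Tgfb2) were called, and the share of all genes fell to 16.8% (8.79% higher and 7.97% lower). In peritumoral fat 4 of 10 were called (Tgfb1, Bmp3 and Gdf15 higher, Tgfb2 lower) against 33.6% of all genes, 16.4% higher and 17.2% lower. Inhba and Gdf15 were tested there only through their HFD peritumoral libraries, so the call of Gdf15 is not to be read against that share. With 8 to 10 genes tested, these counts describe the single ligands and not the family.

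For tumor side on HFD, 5 of 10 tested ligands were called (Tgfb1 and Inhba higher, Bmp2, Bmp3 and Gdf10 lower). Of all genes 29.5% were called, 16.8% higher and 12.7% lower. Here too Inhba and Gdf15 were tested only through their HFD peritumoral libraries, and the call of Inhba is not to be read against that share. Leaving out single libraries gave 2 to 8 called ligands. On Chow 0 of 8 were called, where 0% of 16057 genes passed in edgeR and 14 genes passed in DESeq2, none of them a ligand. At an unadjusted p under 0.05 the Chow comparison held 1381 of 16057 genes, 1 of them a ligand (Gdf10). No ligand and 0% of 16859 genes passed the interaction of diet with tumor side in edgeR, so the difference in tumor effect between diets is not shown for these genes. At an unadjusted p under 0.05 that interaction held 3349 of 16859 genes and 2 of 10 ligands, Tgfb1 and Bmp3. DESeq2 called 726 genes and Bmp3.

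For a tumor at a distance, contralateral against no-tumor fat, Bmp3 was the 1 ligand of 8 called on HFD, where 6.08% of all genes were, 2.72% higher and 3.37% lower. On Chow 0 of 8 were called in edgeR and in DESeq2, where 7.95% of all genes were in edgeR (4.93% higher and 3.02% lower), and 1 (Tgfb2, -0.35 ± 0.16) had an unadjusted p under 0.05. Bmp3 was also the 1 ligand of 8 called in the interaction of diet with a distant tumor, where 19.9% of all genes were, 9.94% in each direction. Comparisons that share a group of libraries are not independent of each other.

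**Figure D3:**
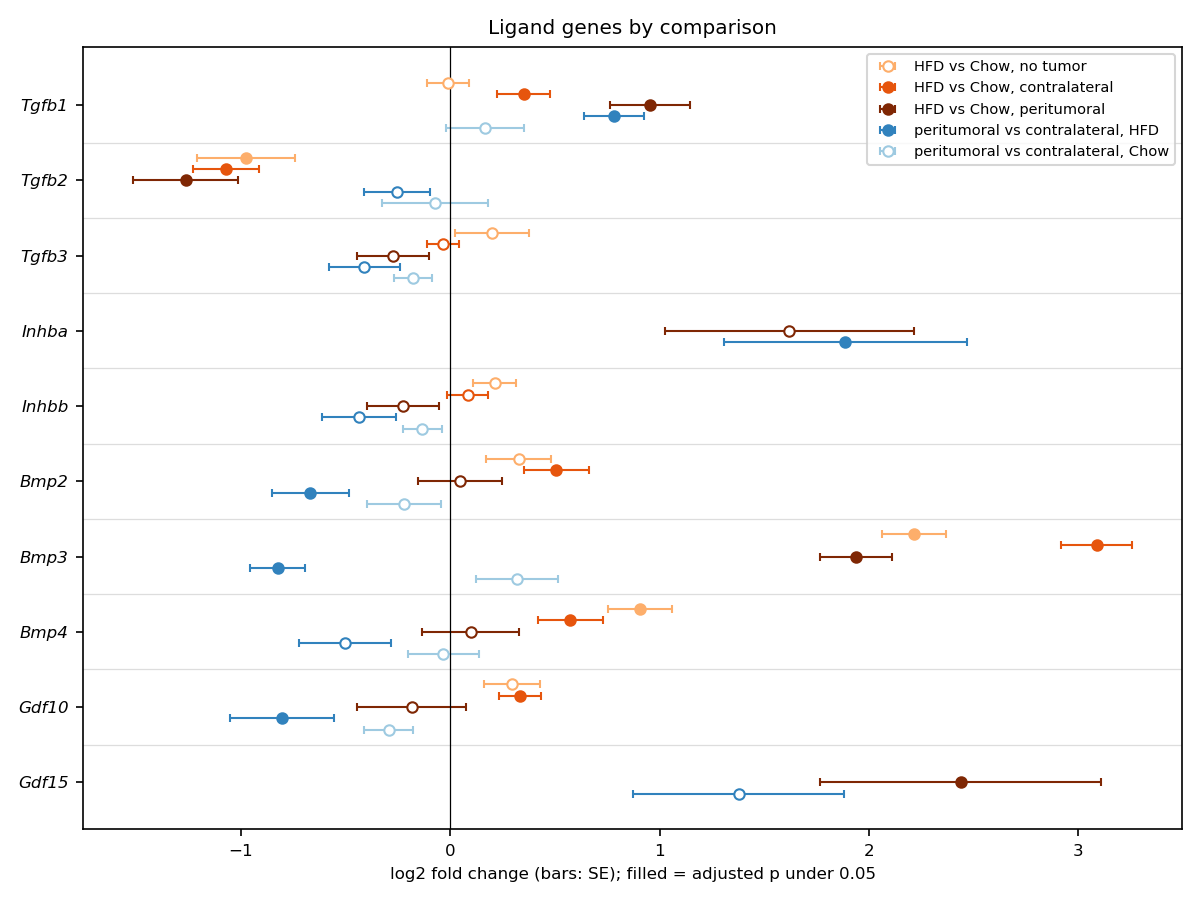
Log2 fold change of each ligand gene (points, bars are SE) in 5 comparisons, HFD against Chow at 3 positions and peritumoral against contralateral fat on each diet; filled points have an adjusted p under 0.05, and Inhba and Gdf15 have points only where they passed the low-count filter. Bmp3 has diet differences of 1.94 to 3.09, Tgfb2 lies below 0 for diet at each position, and no point for tumor side on Chow is filled.

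The HFD peritumoral libraries differed among themselves, in marker lists and in several ligands. The 6 summed adipocyte markers stood at 12346, 6646, 8803 and 9038 CPM in replicates 1 to 4, against 13632 to 16124 CPM in HFD contralateral fat (5 of 6 markers called lower). By these markers replicate 1 was closest to contralateral fat. The 5 macrophage markers summed to 1770, 1766, 2373 and 2279 CPM against 955 to 1160 CPM (5 of 5 called higher), and the 4 proliferation markers to 150, 438, 265 and 334 CPM against 42.2 to 83.0 CPM (4 of 4 called higher). Macrophage markers thus did not follow the other two lists, being lowest in replicates 1 and 2. B cell and lymph node markers stood at 8.38, 95.5, 3.68 and 33.9 CPM and T cell markers at 6.07, 17.9, 3.50 and 11.7 CPM, highest in replicates 2 and 4. Replicate 2, with the fewest adipocyte and the most proliferation transcripts, had the highest Tgfb1, Inhba and Gdf15 and the lowest Bmp2, Bmp3, Bmp4 and Gdf10 of the 4. Replicate 1, with the most adipocyte and the fewest proliferation transcripts, had the lowest Tgfb1, Inhba and Gdf15 and the highest Bmp3, Bmp4, Gdf10, Inhbb and Tgfb3. Other ligands did not share this order. Bmp2 was highest in replicate 3 (6.46 CPM), and Tgfb3 and Inhbb were lowest in replicate 4 (20.6 and 32.1 CPM). Tgfb2 ran only from 5.20 to 5.91 CPM. The part of these cell types in the tumor-side differences was not tested. Mammary epithelial markers, at 74.6 to 268 CPM, overlapped the 180 to 234 CPM of contralateral fat. Chow peritumoral libraries differed among themselves too, with 37.3, 45.9, 92.3 and 174 CPM of the proliferation markers in replicates 1 to 4. Their macrophage markers summed to 841, 1194, 1456 and 1484 CPM.

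**Figure D4:**
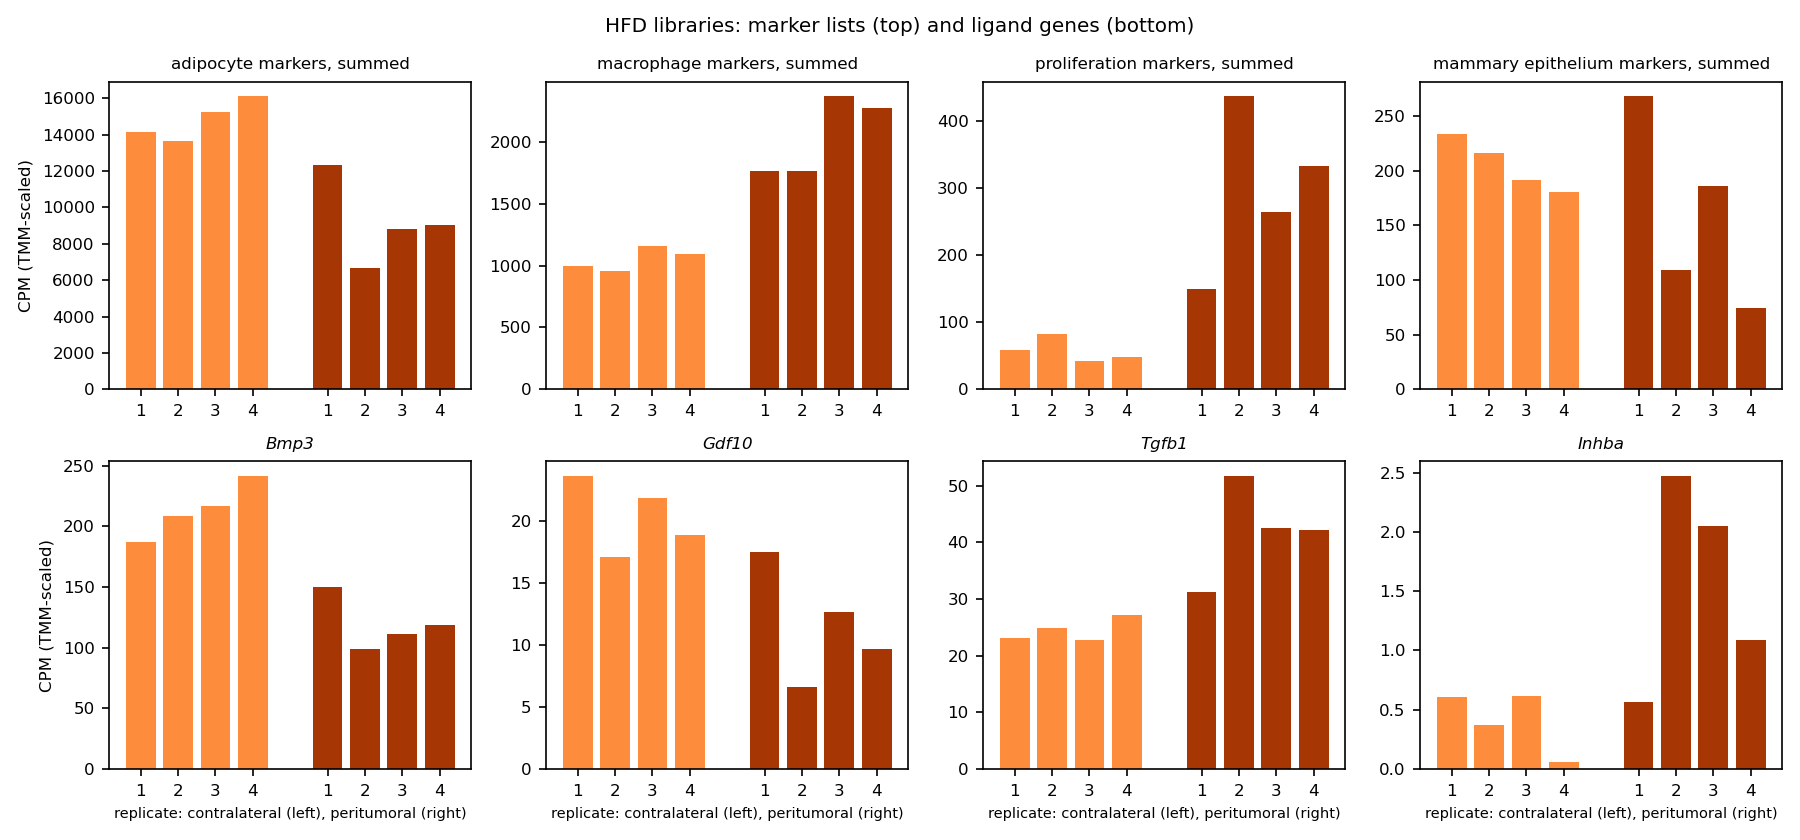
Summed CPM of 4 marker lists (top row) and CPM of 4 ligand genes (bottom row) in each HFD contralateral (left bars) and HFD peritumoral (right bars) library, replicates 1 to 4, axes from 0. Peritumoral replicate 1 has the most adipocyte transcripts of its group (12346 CPM) with the most Bmp3 (150 CPM), and replicate 2 the most proliferation transcripts (438 CPM) with the most Tgfb1 (51.7 CPM).

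Genes with the most similar pattern of group means were found by the root mean square log2 difference over the 6 groups, after centring each gene, among 10736 or 10737 genes. This is a description over 6 groups. Bmp3 was nearest to Unc79 (0.127), Syp (0.134) and Crtac1 (0.168), of which Unc79 ran from 1.41 CPM in Chow contralateral fat to 13.3 CPM in HFD contralateral fat. Tgfb1 was nearest to Rangap1 (0.0391), Bak1 (0.0463) and Grwd1 (0.0477), and Tgfb2 to the epithelial keratin gene Krt19 (0.0483), which fell from 246 CPM in Chow no-tumor fat to 76.3 CPM in HFD peritumoral fat. Among the genes nearest to Gdf10 was Ltbp4 (0.0506), which encodes a latent TGF-beta binding protein.

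The remaining genes of the pathway were read from lists by role, and the calls named here held in every alternative tried unless a loss is given. The counts are read beside the shares of all genes called, 24.9, 49.3 and 33.6% by diet in no-tumor, contralateral and peritumoral fat and 29.5% for tumor side on HFD. Beside the 10 members, 22 other ligand genes of the family were in the matrix, of which 7 to 9 passed the low-count filter in the diet comparisons and in the comparison of tumor side on HFD. Bmp6, a BMP known for regulating iron through hepcidin, stood at 13.4, 13.1, 13.4 and 13.1 CPM in HFD no-tumor fat and at 5.35, 5.13, 5.18 and 5.81 CPM in Chow no-tumor fat. The difference by diet was 1.32 ± 0.09 (adjusted p = 1.39e-06), and the interaction of diet with a distant tumor was -1.31 ± 0.19 (adjusted p = 0.000476). Endothelial markers were called 5 of 5 higher by diet in no-tumor fat and 5 of 5 lower in that interaction, and their part in Bmp6 was not tested. In no-tumor fat 2 of 7 other ligands were called higher and 1 lower, in contralateral fat 1 of 9 higher and 3 lower, and in peritumoral fat 2 of 8 higher and 2 lower. Gdf5, a ligand of joint and cartilage formation, was 2.85 ± 0.37 higher on HFD in contralateral fat. It had 20, 15, 17 and 21 counts there on HFD and 2, 2, 3 and 1 counts on Chow, near the limit of detection. Gdf5 thus passed the low-count filter in that comparison only through the HFD libraries, and its call is no support for a pattern of the family. For tumor side on HFD, Gdf3 had a difference of 1.67 ± 0.36 (adjusted p = 0.0108), where 2 of 9 other ligands were higher and 1 lower. Gdf3 was counted 69, 67, 41 and 62 times in HFD peritumoral fat and 14, 17, 8 and 32 times in HFD contralateral fat. By diet in peritumoral fat it was 1.785 ± 0.45 higher on HFD (adjusted p = 0.0137). There it stood at 3.88, 3.85, 2.47 and 3.75 CPM on HFD and at 0.41, 0.35, 1.53 and 1.75 CPM on Chow.

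The receptors bind the ligands in pairs of type I and type II. Of 14 tested receptors, 5 were higher and 1 lower on HFD in no-tumor fat, 5 higher and 2 lower in contralateral fat, and 0 higher and 3 lower in peritumoral fat, where 24.9, 49.3 and 33.6% of all genes were called. The 7 of 14 in contralateral fat are near that background. Acvrl1, an endothelial type I receptor for BMP9, was 0.41 ± 0.08 higher in no-tumor fat (adjusted p = 0.00295). Endothelial markers were higher there too, as given above, and their part in Acvrl1 was not tested. On HFD 2 receptors were higher and 4 lower in peritumoral than in contralateral fat. Tgfbr2, the type II receptor of TGF-beta, was 0.54 ± 0.09 higher (adjusted p = 0.00384), at 357, 316, 392 and 357 CPM against 232 to 265 CPM. Acvr1c (ALK7), an adipocyte receptor for activin B and related ligands, was lower (-0.77 ± 0.18, adjusted p = 0.0146), at 196, 101, 118 and 140 CPM against 214 to 263 CPM. Of the 6 signal-carrying Smads, Smad1 was 0.33 ± 0.06 higher on HFD in no-tumor fat (adjusted p = 0.00163) and Smad5 was lower in peritumoral than in contralateral fat on HFD (-0.22 ± 0.07, adjusted p = 0.0347, called in 6 of 13 alternatives). No Smad of the list was called by diet in contralateral or peritumoral fat.

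Of the secreted inhibitors, Fst was lower on HFD and Fstl3 higher, and most others did not pass the test. Fst encodes follistatin, which binds and blocks activins. It stood at 22.9, 26.3, 23.7 and 25.9 CPM in Chow no-tumor fat and at 11.98, 8.98, 10.8 and 8.30 CPM in HFD no-tumor fat. The difference was -1.29 ± 0.11 (adjusted p = 9.25e-06), with -0.97 ± 0.15 in contralateral and -0.86 ± 0.15 in peritumoral fat (adjusted p = 0.000364 and 0.00256). Fst was thus lower on HFD at all 3 positions, with no overlap of libraries, in every alternative tried. Fstl3, a follistatin-like inhibitor of activins and myostatin, was higher on HFD at a mean of 2.97 CPM, against 1.24 CPM on Chow, in no-tumor fat (1.27 ± 0.19, adjusted p = 0.00053), and by 1.80 ± 0.28 in contralateral fat and 1.51 ± 0.40 in peritumoral fat. The contralateral call was lost without the 3 muscle-rich libraries (1.60, adjusted p = 0.0519), a fit with 1 Chow library, and the peritumoral call without Chow peritumoral replicate 1 (1.23, adjusted p = 0.05). Chrdl1, a chordin-like antagonist of BMPs, had 267, 288, 425 and 314 CPM in HFD contralateral fat against 92.9 to 128 CPM in Chow contralateral fat, a difference of 1.53 ± 0.16 (adjusted p = 9.17e-05). In peritumoral fat Chrdl1 was 1.14 ± 0.21 higher on HFD (adjusted p = 0.003675), at 287, 167, 311 and 205 CPM against 91.5 to 141 CPM on Chow. Chrdl1 was also higher in HFD contralateral than in HFD no-tumor fat (1.06 ± 0.15, adjusted p = 0.00887), with an interaction of diet and distant tumor of 1.04 ± 0.25 (adjusted p = 0.0109). All 10 tested inhibitors together gave 2 higher and 2 lower by diet in no-tumor fat, 3 and 1 in contralateral fat and 2 and 1 in peritumoral fat.

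**Figure D5:**
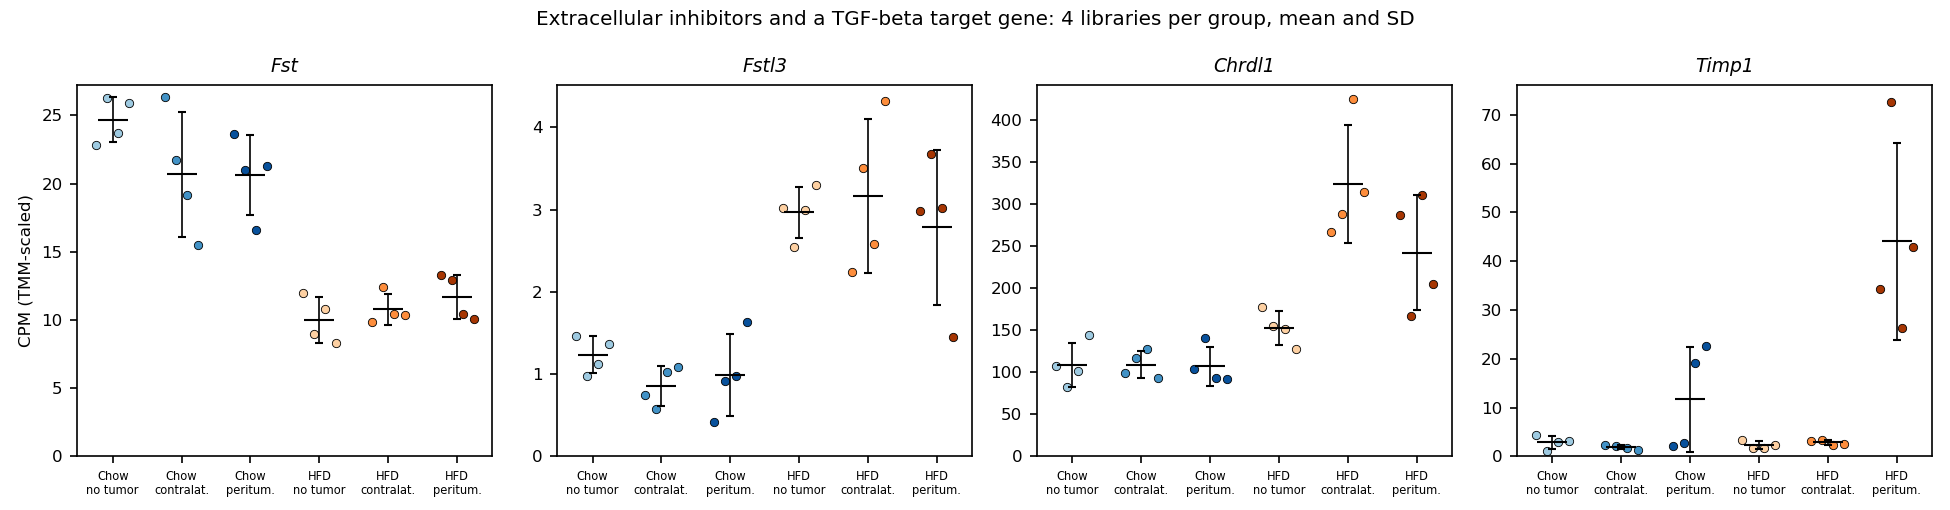
CPM (linear axes from 0) of the inhibitors Fst, Fstl3 and Chrdl1 and of the TGF-beta target gene Timp1 in the 6 groups of 4 libraries; points are libraries, with the group mean and SD. Fst is lower on HFD at all 3 positions, and Chrdl1 has its highest mean in HFD contralateral fat (324 CPM). Timp1 is at 26.3 to 72.6 CPM in HFD peritumoral fat, and at 19.2 and 22.6 CPM in Chow peritumoral replicates 3 and 4.

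Genes for storage and activation of latent TGF-beta were called in both directions. Of 13 tested, 3 were higher and 5 lower on HFD in no-tumor fat, 3 and 4 in contralateral fat and 3 and 2 in peritumoral fat, and 5 were higher and 2 lower in peritumoral than in contralateral fat on HFD, where 24.9, 49.3, 33.6 and 29.5% of all genes were called. The 7 of 13 in contralateral fat are near that background. Thbs1, which encodes thrombospondin 1, an activator of latent TGF-beta, was 1.46 ± 0.23 higher on HFD in contralateral and 1.25 ± 0.14 in peritumoral fat (adjusted p = 0.0012 and 0.000531). Beside the tumor on HFD, Nrros, which anchors latent TGF-beta on macrophages, was 0.86 ± 0.10 higher and Fbn1, the fibrillin that holds latent complexes in the matrix, 0.95 ± 0.17 higher. Macrophage markers were higher in the same libraries, as given above.

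Feedback inhibitors and BMP target genes were called in both directions. More TGF-beta target genes were called higher than lower by diet at each position and for tumor side on HFD. The numbers called by diet were near the shares of all genes called, 24.9, 49.3 and 33.6% in no-tumor, contralateral and peritumoral fat. For tumor side on HFD that share was 29.5%. In no-tumor fat the median log2 difference of the TGF-beta target genes was -0.0407, against -0.0161 over all genes tested. Of 8 feedback inhibitors inside the cell, 2 were higher and 1 lower on HFD in no-tumor fat, 3 and 0 in contralateral fat, 1 and 0 in peritumoral fat, and 0 and 3 for tumor side on HFD. Smad6, an inhibitor of BMP signalling, was lower beside the tumor (-0.99 ± 0.14, adjusted p = 0.00217), at 9.44, 7.07, 8.09 and 8.17 CPM against 13.98 to 19.4 CPM. Of 9 TGF-beta target genes, 2 were higher and 0 lower on HFD in no-tumor fat, 4 and 1 in contralateral fat, 3 and 0 in peritumoral fat, and 4 and 1 for tumor side on HFD. Timp1, a metalloproteinase inhibitor, had 34.3, 72.6, 26.3 and 43.0 CPM in HFD peritumoral fat against 2.34 to 3.44 CPM in HFD contralateral fat. The difference was 3.95 ± 0.33 (adjusted p = 0.000251). In Chow peritumoral fat Timp1 had 2.20, 2.76, 19.2 and 22.6 CPM. Replicates 3 and 4 were thus also high on Chow, though Timp1 was not called for tumor side there. Of 7 BMP target genes, 1 was higher and 1 lower on HFD in no-tumor fat, 2 and 1 in contralateral fat, 1 and 2 in peritumoral fat, and none was called for tumor side on HFD. Id3, a BMP-induced inhibitor of differentiation, was 0.61 ± 0.13 higher on HFD in no-tumor fat (adjusted p = 0.00852), and Msx2, a homeobox target of BMPs, was lower by diet in contralateral and peritumoral fat (-1.14 ± 0.20 and -1.75 ± 0.40).

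The medians of these lists lay between -0.46 and 0.47 on the log2 scale over the comparisons by diet and by tumor side on HFD, against medians of -0.02 to 0.02 over all genes tested. A median of a short list varies more than a median of all genes, and the lists were not tested as sets. No gene of the lists was called for tumor side on Chow or in the interaction of diet with tumor side, where edgeR called 0% of all genes tested, so these counts say nothing particular to the lists.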

How the data were processed

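Total RNA of flash-frozen mammary fat was treated with DNase and depleted of ribosomal RNA, per the labels' protocols. The authors deposited 1 matrix of raw counts per gene (39017 genes, 24 libraries) on mm10. The submitters' processing notes name TopHat and DESeq, whose versions, like the counting tool, its strand setting and the annotation release, are not given in the sources used here. Groups came from the diet and sample type labels. Fits used edgeR 4.0.16 under R 4.3.3, taking only the 8 libraries of the 2 groups compared, or the 16 of an interaction (2 in all). They had TMM factors, the robust quasi-likelihood F test and filterByExpr (minimum count 10, minimum total 15). Benjamini-Hochberg adjustment ran over all genes tested (threshold 0.05). CPM were TMM-scaled over all 24 libraries, and exon bases and positions were those of the matrix. Likeness used centred log2(mean CPM + 0.5) for genes with a mean of at least 5 CPM over all libraries. Replicates differed by more than sampling noise (median chi-square per gene 0.93 to 7.41 over 36 pairs, 0.455 being the value expected from sampling noise alone).

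Named genes were all 10 members, and, in each comparison, the 3 genes of lowest adjusted p among those called on each pathway list; 1 TGF-beta target gene that this rule named stays in the list's counts and is not reported here. Members and lists were chosen with earlier results of these data known. Alternatives were DESeq2 1.42.0, RLE factors, no low-count filter, all 24 libraries in 1 fit, the replicate number as a block and leaving out each library. A further one, chosen after seeing the data, left out 3 Chow contralateral libraries with muscle transcripts. It was run for diet in contralateral fat and for a distant tumor on Chow, and not for the interactions. The fits were tested on simulated data. They recovered 43 to 86% of planted 2-fold changes and 12 to 61% of 1.5-fold changes, least for the interaction with tumor side. For diet in peritumoral fat they recovered 59 and 17%, and for diet in no-tumor fat 13 of 160 calls were false. A gene not called may therefore still differ by such amounts.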

Additional observations from a re-analysis of the deposited data

Results flagged for a closer look

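Of 60 groups of 4 library values (10 ligands in 6 groups), 3 held a library set apart from the other 3 by more than the 95% critical value of Dixon's ratio. Chance sets apart about 1 in 20 groups. Bmp3 in Chow peritumoral fat was 21.6 CPM in replicate 1, against 33.0 to 34.0 CPM in the others. Bmp4 in HFD no-tumor fat was 6.594 CPM in replicate 4, against 4.97 to 5.16 CPM in the others. Gdf10 in Chow contralateral fat was 14.98 CPM in replicate 2, against 15.9 to 16.1 CPM in the others, a small gap in a narrow group.

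The effect of a distant tumor on Bmp3 differed between diets, with an interaction of 0.8818 ± 0.24 on the log2 scale (SE, edgeR, adjusted p = 0.02). From no-tumor to contralateral fat Bmp3 went from 146 ± 8.72 to 214 ± 22.5 CPM on HFD and from 31.8 ± 7.74 to 24.4 ± 6.25 CPM on Chow (SD, n = 4). In Chow contralateral fat the muscle-rich replicates 1, 2 and 4 had 18.1, 22.7 and 23.9 CPM, and replicate 3 had 33.1 CPM. The interaction was not fitted without the muscle-rich libraries.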

How the results depend on the processing

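Of 78 tested pairs of a ligand and a comparison, 20 were called, 10 of them in every alternative and 10 lost in at least 1. None of the 20 reversed, 13 others were called in some alternative, and 45 were never called, of which 15 changed sign in some alternative. Called ligands numbered 2 for diet in contralateral fat without the 3 muscle-rich libraries, where the lone Chow library is assumed to vary like the others. With all 24 libraries in 1 fit they numbered 9 for tumor side on HFD, 0 for a distant tumor on HFD and 1 for the interaction with tumor side, where DESeq2 also gave 1. Leaving out single libraries gave 3 to 4, 4 to 6 and 3 to 6 for diet in no-tumor, contralateral and peritumoral fat. It gave 2 to 8 for tumor side on HFD, 0 to 1 for a distant tumor on Chow, and 0 to 2 and 1 to 2 for the interactions with tumor side and a distant tumor. Over all genes, calls numbered 2875 for diet in contralateral fat without the muscle-rich libraries, and 8799 for diet in peritumoral fat with all libraries in 1 fit (3102 to 6003 leaving out single libraries). For tumor side they numbered 3 without the filter and 14 in DESeq2 on Chow, and 2750 to 6425 leaving out single libraries on HFD. A distant tumor on Chow gave 692 with all libraries, 48 without the muscle-rich ones and 375 to 1986 leaving out single libraries, and on HFD 238 with all libraries and 365 to 1220. The interaction with tumor side gave 726 in DESeq2, 7 without the filter, 333 with all libraries and 0 to 1911 leaving out single libraries, and that with a distant tumor 1556 with all libraries. The cause was not tested. In no comparison did all same-numbered libraries deviate together with a correlation over 0.1 (range -0.37 to 0.326, own number best for 0 to 2 of 4), so numbers were not taken to pair the samples. For tumor side on HFD, where the labels do not state whether 1 mouse gave both sides, 3 of 4 pairs passed that bar (-0.113, 0.105, 0.196 and 0.326). With the replicate block, calls over all genes numbered 356 and 629 for a distant tumor on Chow and HFD and 43 for the interaction with tumor side, and among ligands the block changed 1 call, Tgfb3 for tumor side on HFD (-0.44, adjusted p = 0.0399). No group level moved by more than 1 SD with RLE factors. Depth limits Inhba and Gdf15, with at most 43 and 38 counts per library.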
